A study of Mus musculus with 5 samples.

Results

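The genes described here are 34 genes of fatty acid and triglyceride synthesis, taken by name from the platform annotation of a mouse expression array and each read from the brightest probe set that names that gene alone. All 34 were found among 18193 genes on the array, and 31 of them reached the signal floor that 12439 genes of the whole array reached. The cells were C3H10T1/2, a single mouse embryo line of mesenchymal character, after full differentiation into adipocytes, and each group had 1 array of total RNA from cells exposed for 6 h. The groups were butein, sulfuretin and the solvent array DMSO (dimethyl sulfoxide), which both comparisons share, and resveratrol with a solvent array of its own, DMSO1, which the labels name as its control. Both flavonoids carry a catechol, butein on an open chalcone and sulfuretin on a closed aurone, whereas resveratrol is a stilbene that has none. The labels give no doses. The series description says that the profiles were compared to look for common factors for or against adipogenesis.

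De novo lipogenesis turns surplus carbon into fat. Citrate leaves the mitochondrion, ATP citrate lyase splits it to acetyl-CoA, acetyl-CoA carboxylase makes malonyl-CoA, and fatty acid synthase builds palmitate with NADPH. Elongases and desaturases then lengthen and unsaturate the chain, and acyltransferases, lipins and DGAT enzymes load acyl chains onto glycerol 3-phosphate to give triglyceride. The transcription factors SREBP-1c and ChREBP, encoded by Srebf1 and Mlxipl, drive the enzyme genes in liver and adipose tissue, and insulin raises SREBP-1c activity.

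Each value below is an intensity on the linear scale as deposited, and each difference is the log2 intensity of the treated array minus that of its solvent array. A gene was called at a difference of at least 1, which is 2-fold. With 1 array per group there is no replicate error and no test inside a comparison. DMSO, butein and sulfuretin appear to have been normalized as one set and resveratrol with DMSO1 as another, since median intensities were 6.85 on each array of the first set, 11.5 with resveratrol and 11.1 in DMSO1. Levels are therefore compared only within a set. After joint quantile normalization of the 5 arrays, the difference between the solvent arrays, DMSO1 minus DMSO, had a median size of 0.28 over the 31 members and 0.31 over all counted genes, and it is given below as the only measure of variation without treatment. It holds differences between cultures and between the sets alike, which cannot be told apart. Exactly equal values on both arrays were found for 29.9% of counted genes with butein, 32.5% with sulfuretin and 33.1% with resveratrol. Over all probe sets, dim ones included, these shares were 48.5%, 47.4% and 52.0%. A gene was counted if any of the 5 arrays reached the floor, so counted genes can lie below it on both arrays compared. Their number was not computed, and the shares of all counted genes are not matched to the members in signal level. Of 11 measured adipocyte markers, 9 were at or above intensity 100 on every array, with Fabp4 and Adipoq the defining genes at 6122 or more throughout. Leptin was below the floor on every array. Of 19 measured markers of bone, cartilage, muscle and macrophages, none was at or above 100 on every array.

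The start regions of 4 members are shown first. Lpin2 was the single member past 2-fold upward, and Thrsp, Mid1ip1 and Fasn were chosen, with their values seen, from the several members that were lower with each compound. Each run of 300 bases covers 250 bases before and 50 after an annotated start in RefSeq, build GRCm38.p6, 5′ to 3′. Capitals mark matches on either strand to the E-box CACGTG, the sterol regulatory element TCACNCCAC, CCAAT or the GC box GGGCGG. The Thrsp run lies at chr7:97417501-97417800, minus strand, that of Mid1ip1 at chrX:10717115-10717414, plus strand, that of Fasn at chr11:120824498-120824797, minus strand and that of Lpin2 at chr17:71183282-71183581, plus strand. Lpin2 has 3 annotated starts, of which the first is shown.
Thrsp promoter: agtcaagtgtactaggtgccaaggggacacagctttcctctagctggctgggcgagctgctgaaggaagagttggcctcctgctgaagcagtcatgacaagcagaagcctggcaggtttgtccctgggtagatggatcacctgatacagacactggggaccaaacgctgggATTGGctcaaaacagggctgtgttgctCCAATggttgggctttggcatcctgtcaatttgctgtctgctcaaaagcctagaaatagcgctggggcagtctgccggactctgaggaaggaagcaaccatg
Mid1ip1 promoter: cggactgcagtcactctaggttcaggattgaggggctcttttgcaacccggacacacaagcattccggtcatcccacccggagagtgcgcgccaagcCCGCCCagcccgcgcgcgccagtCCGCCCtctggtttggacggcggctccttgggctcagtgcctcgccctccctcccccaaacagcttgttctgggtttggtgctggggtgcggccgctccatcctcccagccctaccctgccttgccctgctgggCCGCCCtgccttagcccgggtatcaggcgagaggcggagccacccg
Fasn promoter: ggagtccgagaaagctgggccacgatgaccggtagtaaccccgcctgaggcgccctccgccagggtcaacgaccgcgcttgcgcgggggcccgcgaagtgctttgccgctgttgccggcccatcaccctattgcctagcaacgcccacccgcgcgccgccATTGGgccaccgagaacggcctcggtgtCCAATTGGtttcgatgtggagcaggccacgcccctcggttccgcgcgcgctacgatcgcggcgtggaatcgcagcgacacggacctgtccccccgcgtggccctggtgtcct
Lpin2 promoter: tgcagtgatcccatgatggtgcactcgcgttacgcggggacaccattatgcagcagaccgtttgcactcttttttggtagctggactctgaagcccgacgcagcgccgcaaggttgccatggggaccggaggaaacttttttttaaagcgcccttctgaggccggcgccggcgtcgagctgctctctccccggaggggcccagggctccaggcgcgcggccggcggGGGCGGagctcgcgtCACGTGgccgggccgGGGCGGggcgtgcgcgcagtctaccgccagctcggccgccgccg

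Thrsp held 2 CCAAT matches, 79 and 52 bases before the start, and Fasn held 3, at 90, 62 and 59, of which the last 2 overlap. Mid1ip1 held 3 GC boxes, and the Lpin2 run held 2 GC boxes with an E-box between them, 9 bases before the start. Promoter entries were found for 27 of the 34 members, 37 runs in all. CCAAT was in 48.6% of the member runs and in 37.4% of all 32851 runs of the same length, and the GC box in 59.5% and 35.7%. The E-box was in 13.5% of the member runs and in 7.15% of all runs. The sterol regulatory element was in 1 member run, a second start of Mlxipl, or 2.7% against 1.24% of all runs. These are letter matches and describe no binding.

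With butein the pathway was mostly lower. Of the 31 counted members, 25 were lower than in DMSO, 3 were higher and 3 had exactly equal values, with a median log2 difference of -0.21. Elovl3, below the floor on the butein, sulfuretin and DMSO arrays but counted through the other set, is 1 of the 3. Over all counted genes 37.1% were lower, 33.0% higher and 29.9% exactly equal, and the median was 0. Past the 2-fold criterion were Thrsp, downward, and Lpin2, upward. The criterion was met downward by 0.297% and upward by 2.03% of all counted genes. At 1.5-fold, 5 members were lower, namely Thrsp, Mid1ip1, Srebf1, Fasn and Agpat2, where 2.47% of all counted genes were. The median of the regulators was -0.83, of de novo synthesis -0.19, of elongation and desaturation -0.18, of glycerolipid assembly -0.41 and of fatty acid activation -0.05.

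With sulfuretin the members divided. Of 31, 16 (51.6%) were lower than in DMSO, 13 (41.9%) higher (Elovl3, below the floor, among them) and 2 equal, and the median was -0.02. Of all counted genes 32.6% were lower, 34.8% higher and 32.5% exactly equal. Thrsp was the 1 member past 2-fold downward and none was past it upward, where 0.0482% and 0.193% of all counted genes were. Mid1ip1 also passed 1.5-fold downward, which 0.378% of all counted genes did. All 3 counted regulators were lower, with a median of -0.71. The other medians were 0.02 for de novo synthesis, 0 for elongation and desaturation, 0.01 for glycerolipid assembly and -0.30 for fatty acid activation.

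With resveratrol the members were lower by small amounts. Of 31, 26 were lower than in DMSO1, 4 higher and 1 equal, with a median of -0.15. Of all counted genes 34% were lower, 32.9% higher and 33.1% exactly equal. No member passed 2-fold, where 0.0643% of all counted genes passed it downward and 0.0804% upward. At 1.5-fold Mid1ip1, Elovl6 and Pck1 were lower, where 0.362% of all counted genes were. Role medians were -0.45 for the regulators, -0.20 for de novo synthesis, -0.15 for elongation and desaturation, -0.13 for glycerolipid assembly and -0.19 for fatty acid activation. The difference was larger in size than the solvent difference of the same gene for 17 of 31 members (54.8%) with butein, 10 (32.3%) with sulfuretin and 15 (48.4%) with resveratrol. Over all counted genes these shares were 27.7%, 17.3% and 12.8% in the same order.

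**Figure D1:**
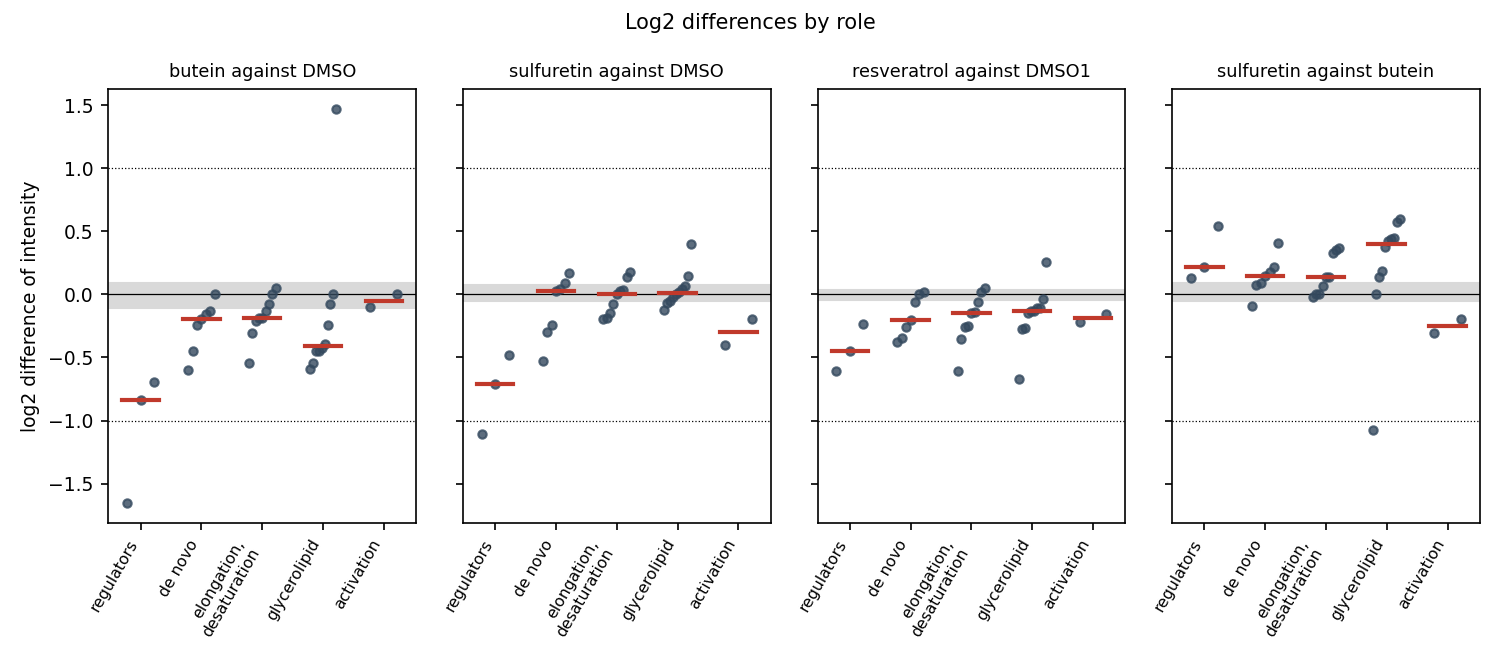
Log2 differences of intensity (vertical axis) for the counted members by role, in 4 comparisons; each point is a gene, the red line is the role's median, the grey band spans the middle quartiles of all counted genes and dotted lines mark 2-fold. The regulators lie below 0 with each compound (medians -0.83, -0.71 and -0.45), while glycerolipid assembly has a median of -0.41 with butein and 0.01 with sulfuretin.

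The adipocyte markers were lower in the butein and resveratrol comparisons too. Of 10 counted markers 9 were lower with butein, with a median of -0.24, 4 were lower with sulfuretin (median 0.01) and 10 were lower with resveratrol (median -0.12). The summed intensity of the 11 measured markers was 21546 with butein, 24488 with sulfuretin and 24600 in DMSO. It was 24060 with resveratrol and 25768 in DMSO1. In bulk RNA, fewer adipocytes and less RNA per adipocyte cannot be told apart, and the part of either in the members' differences was not tested. Of the other lineages, 2 bone markers were counted. Sp7 read 20.2 with butein, with sulfuretin and in DMSO, and Alpl was below the floor on those arrays. The 2 counted cartilage markers were lower with butein (median -0.60) and sulfuretin (-0.34). Of the 2 counted muscle markers, Acta1 was lower (-0.65 and -0.43). Ckm, near the floor at 10.2 in DMSO, differed by -0.02 with each. Of 3 counted macrophage markers, 2 were lower with butein. The other, Cd68, was below the floor with butein (7.57), with sulfuretin (6.83) and in DMSO (5.65), so its difference is not read. With Cd68 included the macrophage median was -0.08 with butein and 0 with sulfuretin. With resveratrol the medians were -0.07 for bone, 0.01 for cartilage, -0.07 for muscle and 0 for macrophages. The part of these markers in the result was not tested. Summed over the 5 measured cartilage markers, intensities were 115 with butein, 129 with sulfuretin and 157 in DMSO. For the 5 measured muscle markers they were 70.1, 76.3 and 95.6 in the same order.

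Among the regulators, Thrsp (NCBI gene 21835) encodes a small nuclear and cytosolic protein that responds to thyroid hormone and carbohydrate and raises lipogenesis. Its intensity was 44.3 with butein and 64.6 with sulfuretin, against 139 in DMSO. It was 134 with resveratrol, against 183 in DMSO1. Thrsp was thus lowest with butein and below its solvent array with every compound, by 3.15-fold with butein, 2.16-fold with sulfuretin and 1.37-fold with resveratrol. The solvent arrays differed by a log2 difference of -0.08 for this gene. The second probe set of Thrsp had the same order, 21.3 with butein, 27.3 with sulfuretin and 46.4 in DMSO. The third read 10.5 on all of these arrays, and the mean of the 3 probe sets was under the criterion, at -0.92 with butein and -0.62 with sulfuretin. With a pseudocount of 16 the sulfuretin difference was -0.95.

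Mid1ip1 encodes a partner of the Thrsp product that promotes polymerisation of acetyl-CoA carboxylase. It read 147 with butein and 160 with sulfuretin, against 262 in DMSO. It read 295 with resveratrol, against 449 in DMSO1. These are 1.78-fold, 1.63-fold and 1.52-fold lower, the narrowest range over the compounds among the 3 counted regulators. The solvent difference of Mid1ip1 was 0.38, DMSO1 being the higher. With the solvent arrays exchanged after joint quantile normalization, the Mid1ip1 difference was -0.19 with resveratrol, -1.19 with butein and -1.06 with sulfuretin. Srebf1 read 164 with butein and 190 with sulfuretin, against 265 in DMSO, log2 differences of -0.70 and -0.48. It read 215 with resveratrol and 254 in DMSO1, 1.18-fold lower. Its solvent difference was -0.48, as large as its sulfuretin difference. When DMSO1 served as the control after joint quantile normalization, the Srebf1 difference was -0.20 with butein and 0.03 with sulfuretin. Mlxipl was below the floor on every array, at 4.45 with butein, with sulfuretin and in DMSO, at 7.65 with resveratrol and at 8.36 in DMSO1, so no difference is read for it.

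**Figure D2:**
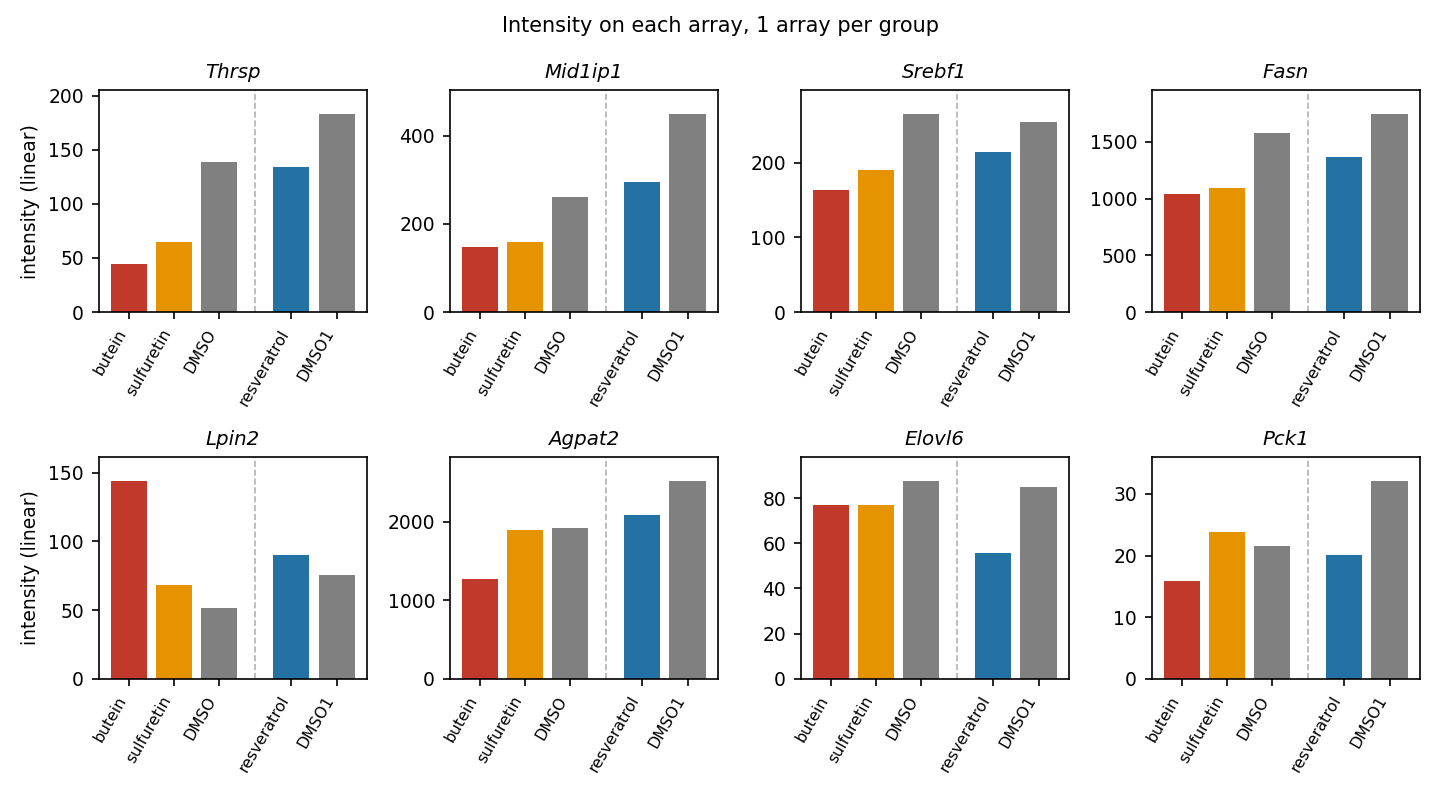
Linear intensity (vertical axis) of 8 members on each of the 5 arrays, 1 array per bar with no error; the dashed line separates the arrays that appear to have been normalized apart. Thrsp, Mid1ip1, Srebf1 and Fasn are lower than their solvent array with each compound, Lpin2 reads 144 with butein against 51.7 in DMSO, and Elovl6 and Pck1 are lowest relative to solvent with resveratrol.

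In de novo synthesis, Fasn, the gene of fatty acid synthase, differed most with butein and sulfuretin. It read 1038 with butein and 1095 with sulfuretin, against 1575 in DMSO, and 1369 with resveratrol, against 1743 in DMSO1. It was 1.52-fold, 1.44-fold and 1.27-fold lower, and its solvent difference was 0.04. Acly, which encodes ATP citrate lyase, read 1074 with butein, 1192 with sulfuretin and 1463 in DMSO, and 1975 with resveratrol against 2060 in DMSO1. It was 1.36-fold lower with butein, 1.23-fold lower with sulfuretin (-0.30) and nearly level with resveratrol (-0.06). The solvent difference of Acly was 0.37, larger in size than its sulfuretin difference. Its 2 dimmer counted probe sets were lower with butein by -0.53 and -0.35 and with sulfuretin by -0.25 and -0.34.

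The acetyl-CoA carboxylase genes differed less than Fasn with butein and sulfuretin. Acaca, the cytosolic lipogenic form, read 221 with butein, 208 with sulfuretin and 247 in DMSO. It read 267 with resveratrol and 346 in DMSO1, 1.30-fold lower (-0.37), the largest difference with resveratrol in de novo synthesis, and its solvent difference was 0.10. Acacb, whose product at the mitochondrial surface restrains fatty acid oxidation, read 17.5 with butein, 20.3 with sulfuretin and 20.0 in DMSO, and 26.8 on both other arrays. Slc25a1, the mitochondrial citrate carrier, was 459 with butein, 607 with sulfuretin and 541 in DMSO, so that it was lower with butein (-0.24) and higher with sulfuretin (0.17). It read 798 with resveratrol and 916 in DMSO1 (-0.20). Each of these Slc25a1 differences is smaller than its solvent difference of 0.46.

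Acss2 encodes the cytosolic enzyme that makes acetyl-CoA from acetate. Its brightest probe set read 48.4 with butein, 54.6 with sulfuretin and 53.1 in DMSO, and 63.5 with resveratrol against 75.8 in DMSO1. A second probe set of nearly the same brightness read 32.0 with butein, 42.2 with sulfuretin and 52.1 in DMSO, so the probe sets of Acss2 gave -0.13 and -0.71 for butein. Me1, the malic enzyme that supplies NADPH, was close to its own solvent array with each compound. It read 471 with butein, 501 with sulfuretin and 470 in DMSO, and 1081 with resveratrol against 1066 in DMSO1. Its solvent difference was 0.89, and with DMSO1 as the control after joint quantile normalization Me1 was lower with butein (-0.86) and sulfuretin (-0.76).

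The stearoyl-CoA desaturase genes had small differences on their brightest probe sets, and that of Scd1 lies at or near the highest intensities of the arrays, 7703 being the highest of DMSO1. Scd1 read 7047 with butein and 7738 both with sulfuretin and in DMSO, and 7403 with resveratrol against 7703 in DMSO1. Its dimmer probe set read 517 with butein, 631 with sulfuretin and 608 in DMSO, and 1536 with resveratrol against 1792 in DMSO1, log2 differences of -0.23, 0.05 and -0.22. Scd2 was lower with butein (-0.18) and resveratrol (-0.26) and higher with sulfuretin (0.18), each smaller in size than its solvent difference of 0.27. It read 3272 with butein, 4217 with sulfuretin and 3718 in DMSO, and 3501 with resveratrol against 4194 in DMSO1. The third probe set of Scd2 gave a larger difference. It read 50 with butein, 94.0 with sulfuretin and 141 in DMSO, a log2 difference of -1.49 with butein and -0.58 with sulfuretin, against the smaller values of the brightest.

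The front-end desaturase genes Fads1 and Fads2 make polyunsaturated fatty acids. Fads2 read 274 with butein, 349 with sulfuretin and 400 in DMSO, and 434 with resveratrol against 556 in DMSO1. It was lower with each, by 1.46-fold, 1.14-fold and 1.28-fold, and its 2 other probe sets were lower with each too. Fads1 read 447 with butein, 561 with sulfuretin and 551 in DMSO, and 539 with resveratrol against 641 in DMSO1, so it was lower with butein (-0.30) and resveratrol (-0.25) and level with sulfuretin (0.02). Fads3, a related gene, read 360 with butein and sulfuretin and 379 in DMSO, and 608 with resveratrol against 587 in DMSO1.

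Of the elongase genes, Elovl6, which takes palmitate to stearate, was the one that differed most with resveratrol. It read 55.8 with resveratrol and 84.8 in DMSO1, 1.52-fold lower, and 76.9 with butein and with sulfuretin against 87.6 in DMSO. Its second probe set gave -0.72 with resveratrol. The solvent difference of Elovl6 was -0.65, as large as the resveratrol difference of -0.60. Elovl5 read 522 with butein, 547 with sulfuretin and 605 in DMSO, and 721 with resveratrol against 798 in DMSO1, log2 differences between -0.21 and -0.14. Elovl1, which acts on very long chains, read 334, 330 and 322 in the first set in the order butein, sulfuretin and DMSO, and 280 with resveratrol against 309 in DMSO1. Elovl3 reached the floor on the resveratrol and DMSO1 arrays alone, at 13.4 and 13.2, and was below it at 4.71 with butein, 5.20 with sulfuretin and 4.71 in DMSO, where its difference is not read.

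Glycerolipid assembly had the largest role median between sulfuretin and butein, 0.40. With butein 8 of its 10 counted members were lower, 1 was equal and Lpin2 was higher. With sulfuretin 4 were lower, 5 higher and 1 equal. Gpam, which encodes the mitochondrial enzyme that puts the first acyl chain on glycerol 3-phosphate, read 473 with butein, 640 with sulfuretin and 620 in DMSO. Agpat2, whose product adds the second chain and whose loss causes lipodystrophy in humans and mice, read 1276 with butein, 1897 with sulfuretin and 1920 in DMSO. Agpat2 was 1.51-fold lower with butein and within 1.01-fold of DMSO with sulfuretin. With resveratrol it read 2089, against 2517 in DMSO1. The solvent difference was -0.33 for Gpam and 0.33 for Agpat2. With DMSO1 as the control after joint quantile normalization, Gpam differed by -0.04 with butein and 0.39 with sulfuretin, and Agpat2 by -0.86 and -0.32.

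The last step, from diacylglycerol to triglyceride, was also lowest with butein among the first 3 arrays. Dgat1 read 515 with butein, 704 with sulfuretin and 693 in DMSO, and 805 with resveratrol against 884 in DMSO1. Dgat2 read 279 with butein, 375 with sulfuretin and 408 in DMSO, and 769 with resveratrol against 790 in DMSO1. Both were lower with butein, by 1.34-fold and 1.46-fold, and within 1.10-fold of their solvent array with sulfuretin and resveratrol. Gpd1, which makes glycerol 3-phosphate from glycolysis, read 1616 with butein, 1843 with sulfuretin and 1914 in DMSO, and 1911 with resveratrol against 2088 in DMSO1. Gpam read 584 with resveratrol and 628 in DMSO1, a log2 difference of -0.11. The solvent difference was 0.62 for Dgat2 and 0.06 for Dgat1.

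The lipins dephosphorylate phosphatidate to diacylglycerol, and their genes went opposite ways with butein. Lpin2 (NCBI gene 64898) read 144 with butein, 68.3 with sulfuretin and 51.7 in DMSO, and 90.4 with resveratrol against 75.5 in DMSO1. It was 2.78-fold, 1.32-fold and 1.20-fold higher, so the butein array stands far above the rest. Lpin1, the main lipin of adipose tissue, read 182 with butein, 237 with sulfuretin and 248 in DMSO, and 253 with resveratrol against 306 in DMSO1. It was 1.36-fold lower with butein, 1.05-fold lower with sulfuretin and 1.21-fold lower with resveratrol. The second probe set of Lpin2 gave 1.34 with butein and the third, over the floor in the resveratrol set alone, gave 0.23. The mean of all 4 probe sets of Lpin2 was 0.74, under the criterion. Lpin3 was below the floor on every array.

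Pck1 encodes phosphoenolpyruvate carboxykinase, through which fasting adipocytes make glycerol 3-phosphate. It read 15.8 with butein, 23.8 with sulfuretin and 21.5 in DMSO, and 20.1 with resveratrol against 32.1 in DMSO1. It was 1.36-fold lower with butein, 1.11-fold higher with sulfuretin and 1.59-fold lower with resveratrol, from levels no more than 4 times the floor of 8.39. Agpat1 read 40.3 on the butein, sulfuretin and DMSO arrays, and 65.4 with resveratrol against 70.4 in DMSO1. Agpat3 read 315, 348 and 331 in the order butein, sulfuretin and DMSO, and 505 with resveratrol against 560 in DMSO1. The solvent difference of Agpat3 was 0.38. Mogat1, a monoacylglycerol acyltransferase gene, was below the floor on every array.

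**Figure D3:**
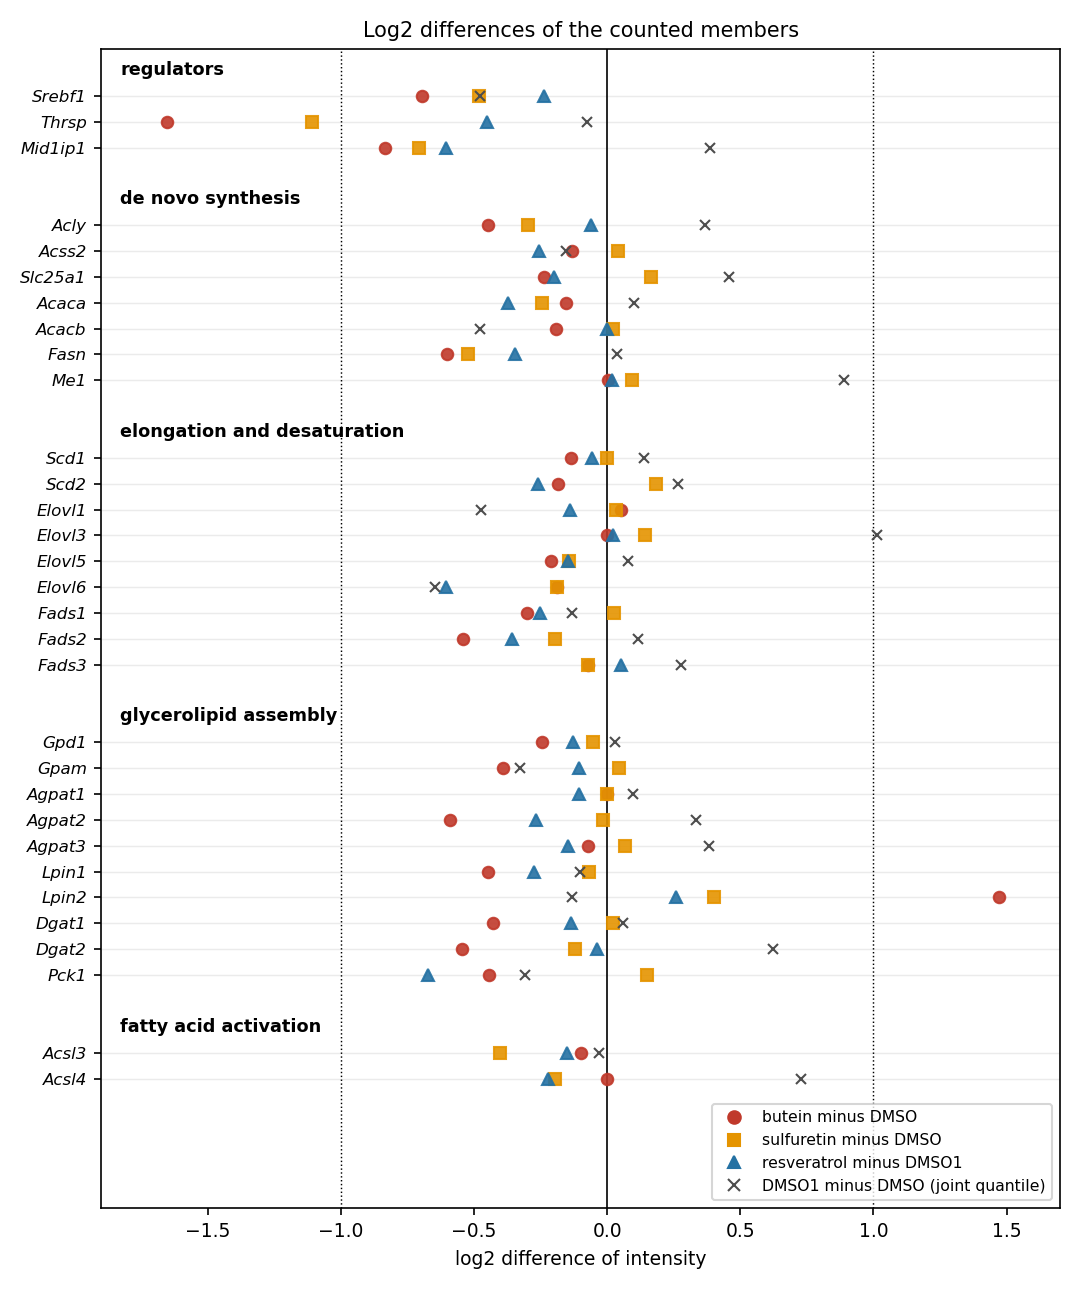
Log2 difference of intensity (horizontal axis) for each of the 31 counted members, grouped by role, with butein, sulfuretin and resveratrol against their own solvent array, and DMSO1 minus DMSO after joint quantile normalization as crosses; dotted lines mark 2-fold. Thrsp (-1.65 and -1.11) and Lpin2 (1.47) pass a dotted line with a compound, and the cross of Elovl3 (1.01), which is below the floor in DMSO, lies past one.

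Both acyl-CoA synthetase genes, which activate free fatty acids, leaned the other way between the flavonoids. Acsl3 read 193 with butein, 156 with sulfuretin and 207 in DMSO, and 245 with resveratrol against 272 in DMSO1. Acsl4, which prefers arachidonate, read 129 with butein, 113 with sulfuretin and 129 in DMSO, and 250 with resveratrol against 292 in DMSO1. On their brightest probe sets they were lower with sulfuretin, by 1.32-fold and 1.14-fold, than in DMSO. The solvent difference was -0.03 for Acsl3 and 0.73 for Acsl4. The dimmer probe sets of Acsl4 gave other values. The second read 38.8 with butein, 32.0 with sulfuretin and 27.0 in DMSO, and the third 22.5 with butein, 11.2 with sulfuretin and 10.5 in DMSO, so both were higher with both compounds.

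Across the members, 36 dimmer probe sets of 23 genes also reached the floor on at least 1 array. With butein 23 of them had the sign of the brightest probe set, 2 the opposite sign and 11 could not be signed because a value was equal. With sulfuretin these counts were 20, 7 and 9, and with resveratrol 28, 2 and 6. Some of these probe sets, among them those of Elovl1, Gpam, Lpin2 and Acsl3, were below the floor with butein, with sulfuretin and in DMSO. With butein, those of Elovl1, Gpam and Lpin2 are among the same signs and that of Acsl3 among the opposite. The butein and sulfuretin counts thus rest in part on differences not read elsewhere. Sulfuretin also had the smallest median difference of the members, -0.02.

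**Figure D4:**
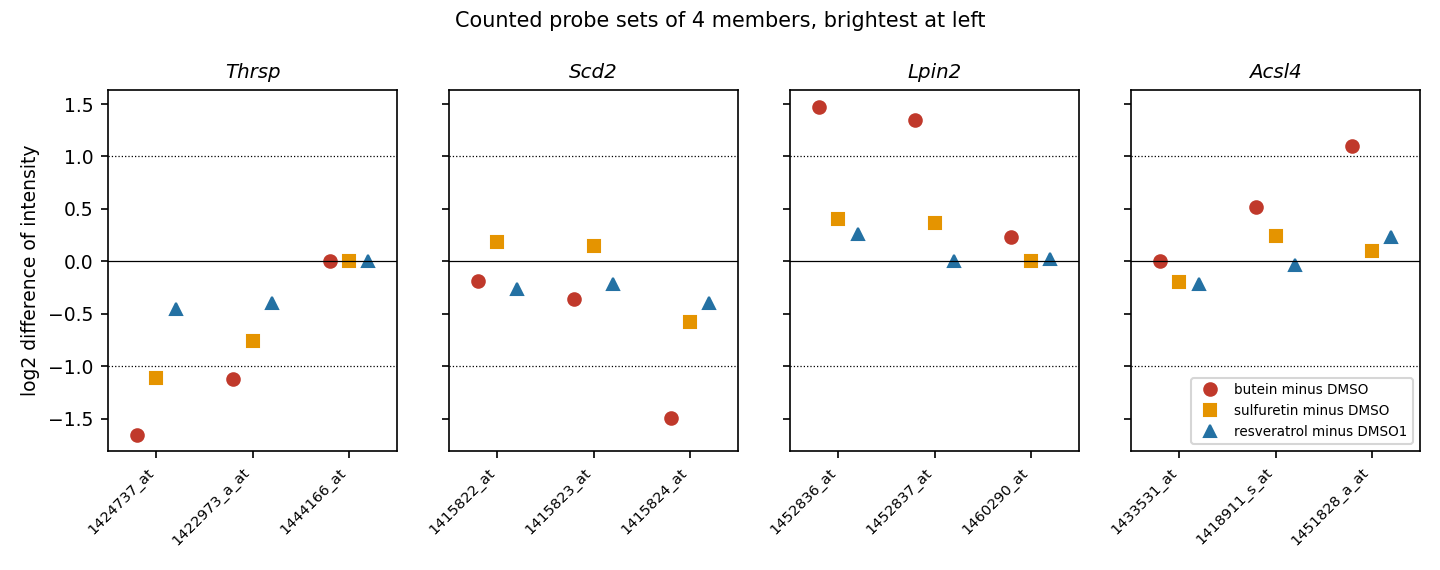
Log2 difference of intensity (vertical axis) for every counted probe set of Thrsp, Scd2, Lpin2 and Acsl4 (horizontal axis, brightest at left) with butein and sulfuretin against DMSO and resveratrol against DMSO1; dotted lines mark 2-fold. For Scd2 and Acsl4 the third probe set passes 2-fold with butein (-1.49 and 1.10) while the brightest does not (-0.18 and 0).

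Sulfuretin was set directly against butein, a single pair of related compounds on arrays of the same set. Both carry a catechol ring, and the aurone closes into a ring the bridge that is open in the chalcone. Their doses are not in the labels, so a matched dose is not known. Of 31 members 23 were higher with sulfuretin than with butein, 5 lower and 3 equal, with a median of 0.15. Elovl3, below the floor on both arrays, was among the higher. Of all counted genes 37.0% were higher, 30.1% lower and 32.9% exactly equal. Lpin2 was 2.10-fold lower with sulfuretin, the 1 member past the criterion downward, which 1.04% of all counted genes passed. No member was past it upward, where 0.0965% were. The median was 0.40 for glycerolipid assembly, 0.21 for the regulators, 0.15 for de novo synthesis, 0.14 for elongation and desaturation and -0.25 for fatty acid activation. The largest upward differences were 0.59 for Pck1, 0.57 for Agpat2, 0.54 for Thrsp and 0.45 for Dgat1. Fasn (0.08), Mid1ip1 (0.13), Elovl6 and Fads3 (both 0) differed little between the compounds. With 1 array for each compound, no interval of these differences can be given, and a small difference does not show that they act alike.

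Other genes of the pathway were read from lists of 57 genes, of which 51 were measured and 46 counted. Of these, 24 were lower and 17 higher with butein (median -0.04), 18 lower and 18 higher with sulfuretin (0), and 26 lower and 9 higher with resveratrol (-0.02). Pnpla3, a lipid droplet acyl hydrolase and transacylase gene that SREBP-1c activates, was the 1 of the 46 past 2-fold. It read 8.95 with butein and 28.0 with sulfuretin, against 87.5 in DMSO, and 27.2 with resveratrol, against 57.4 in DMSO1. Past 2-fold downward were 0.297% of all counted genes with butein, 0.0482% with sulfuretin and 0.0643% with resveratrol. No partner of the regulators passed 2-fold. Insig2, whose product retains the SREBP escort protein in the endoplasmic reticulum, differed by 0.28 with butein, 0.37 with sulfuretin and -0.10 with resveratrol, and the liver X receptor gene Nr1h3 by -0.17, -0.23 and -0.36. Of the other glycerolipid genes, Plpp3, a lipid phosphate phosphatase, differed by 0.44, 0.32 and -0.01, and Fitm1, which aids lipid droplet formation, by 0.43, -0.05 and 0.07 in the same order.

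A limma fit over 12439 genes used jointly normalized values and took the 2 solvent arrays as replicates. It leaves 1 residual degree of freedom and assumes that single treated arrays vary as the solvent arrays do. With 1 array in each treated group, its log2 differences alone are given. The largest log2 differences of members in this fit were -1.55 for Thrsp, 1.43 for Lpin2 and -0.998 for Mid1ip1 with butein. The largest in size was -1.04 (Thrsp) with sulfuretin, -0.98 (Elovl6) with resveratrol and -1.03 (Lpin2) in sulfuretin against butein.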

How the data were processed

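Total RNA was hybridised to Affymetrix mouse arrays, 5 in all, 1 per group. The deposited values are linear intensities for 45037 probe sets, made with RMA per the submitters' processing notes; no source used here gives its version or background step. Log2 of each deposited intensity was taken with no pseudocount. The platform annotation names 1 gene for 34945 probe sets, several for 932 and none for 9160, and the symbols of 34741 were brought up to date from RefSeq (GRCm38.p6) by NCBI gene ID. A gene was represented by its probe set of highest mean log2 value and counted when its highest value reached the median of the probe sets' means (intensity 8.39). Values within 1e-06 on the log2 scale were called equal. Members and lists were chosen with earlier results of these data known. All 34 members were to be named, with any other listed gene past 2-fold and at most 2 further ones per list with the largest difference. Slc27a1 was named outside this rule. Joint quantile normalization averaged the sorted log2 values of the 5 arrays. Alternatives were a fold criterion of 1.5, averaging a gene's probe sets, removal of the floor or a floor at percentile 75. Others were leaving out cross-hybridising probe sets, joint quantile normalization with either or both solvent arrays and a pseudocount of 16. A limma fit took both solvent arrays as replicates. The dimmest counted probe set was added after the data were seen. Models ran in limma 3.58.1 under R 4.3.3, and other steps in Python 3.11.15 with pandas 2.3.3, numpy 2.4.6 and matplotlib 3.10.9.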

Additional observations from a re-analysis of the deposited data

Results flagged for a closer look

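4 probe sets that the comparisons above do not use, because a brighter probe set of the gene exists, passed 2-fold with butein against DMSO. The second probe set of Thrsp differed by -1.12 and that of Lpin2 by 1.34, in the direction of the brightest probe set of each. The third probe set of Scd2 differed by -1.49, while the brightest differed by -0.18. The third probe set of Acsl4 differed by 1.10, while the brightest was equal on both arrays. No explanation was tested for any of these.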

How the results depend on the processing

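No paired analysis was possible because each group has 1 array. A median was taken as moved when it shifted by more than 0.0563. This is the SD of 2 values that lie 0.0796 apart, the median of the members' solvent differences. Single members differed more between the solvent arrays, with a median size of 0.28. With a fold criterion of 1.5, members lower were 5 with butein, 2 with sulfuretin and 3 with resveratrol. In sulfuretin against butein 1 was higher, Pck1, at 23.8 and 15.8, as were 122 of 12439 counted genes. With the mean of all probe sets, 0 members passed 2-fold in any comparison or direction. With a pseudocount of 16, 0 were lower with sulfuretin and 0 in sulfuretin against butein. The limma fit, with 1 array in each treated group, is given by its log2 differences alone and adds no count here. With DMSO1 as control after joint quantile normalization, 4 members were lower with butein (median -0.34), Elovl3 among them from a value below the floor, and 2 with sulfuretin (median -0.21). With DMSO as control for resveratrol, 1 was higher (Elovl3, below the floor in DMSO), 2 were lower and the median was -0.0892. Shares of all counted genes past 2-fold under an exchanged control were not computed. The solvent arrays alone, after that normalization, differed by at least 2-fold for 1 of 31 members (3.23%) and 5.8% of all counted genes. With both solvent arrays as control the medians were -0.29 with butein and -0.14 with sulfuretin. With the dimmest counted probe set, 0 were lower with sulfuretin, and the genes past 2-fold with butein were Scd2 and Acsl4 in place of Thrsp and Lpin2. The cause of these shifts was not tested. No median changed sign under the alternatives run, though that of sulfuretin was 0 without a floor and with the dimmest counted probe set. Joint quantile normalization with the own control, no floor, a floor at percentile 75 and leaving out cross-hybridising probe sets left every count of members past 2-fold as it was. A single array per group limits every value, and signals near the floor are the least certain.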

Other observations

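Genes that supply NADPH and the remaining elongation steps showed both directions. Pgd, an NADPH-producing enzyme gene of the pentose phosphate pathway, read 2602 with butein and 2388 with sulfuretin, against 1312 in DMSO, and 1301 with resveratrol, against 1381 in DMSO1. It was 1.98-fold higher with butein and 1.82-fold higher with sulfuretin. Idh1, the cytosolic NADP-dependent isocitrate dehydrogenase gene, read 1403 with butein, 1893 with sulfuretin and 2024 in DMSO, and 1909 with resveratrol against 2144 in DMSO1. Against DMSO, Pgd was higher and Idh1 lower with butein. Hacd2, a dehydratase gene of the elongation cycle, read 465 with butein, 509 with sulfuretin and 662 in DMSO, and 519 with resveratrol against 575 in DMSO1. Cyb5a, the electron donor of desaturases, read 3149 with butein, 3605 with sulfuretin and 2799 in DMSO, and 2588 with resveratrol against 2754 in DMSO1. Of the fatty acid transport protein genes, Slc27a4 differed by 0.16 with butein, 0.18 with sulfuretin and 0.11 with resveratrol, and Slc27a1 by -0.06, 0.03 and 0 in the same order. Slc27a3 differed by 0.28 with resveratrol and was below the floor on the butein, sulfuretin and DMSO arrays. None of these genes passed 2-fold.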
